A study of Mus musculus with 15 samples.

Results

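The Hox genes and the Meis and Pbx genes were followed across mesenchymal cells of thymus and lymph node in C57BL/6 mice aged 2 weeks. Members were the transcript clusters of the array annotated with exactly 1 gene symbol of the Hoxa to Hoxd, Meis or Pbx families, and each member had 1 such transcript cluster. This rule gave 42 of the 18718 genes tested: 36 Hox genes (10 of the HoxA, 9 of the HoxB, 9 of the HoxC and 8 of the HoxD cluster), 3 Meis genes and 3 Pbx genes. The rule used names and no measured value, but it was chosen with earlier results of these data known. All cells were sorted as PDGFRβ-positive after digestion with liberase and DNase I. Thymus gave podoplanin-positive, BP3-negative cells (PDPN+BP3-) and podoplanin-negative cells (PDPN-). Pooled nodes of groin, axilla and forelimb (inguinal, axillary, brachial) gave PDPN+BP3-, PDPN+BP3+ and PDPN- cells. PDPN- cells of both tissues were also selected for Ly51, the product of Enpep, and BP3 is the product of Bst1. BP3+ cells were measured in lymph node alone. Every group had 3 arrays, each from an individual experiment, so n = 3 throughout and there were 15 arrays. Thymus samples pooled 3 mice and lymph node samples pooled 10 to 11, so pool size and tissue cannot be told apart.

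Hox proteins are homeodomain transcription factors encoded in 4 clusters. The order of the genes along a cluster follows the order in which they are used along the head-to-tail axis of the embryo, with low paralog numbers used towards the head and high ones towards the tail. MEIS and PBX proteins are homeodomain proteins of the TALE class that bind DNA together with Hox proteins and sharpen their choice of sites. Mesenchymal cells of adults are known to keep much of the Hox pattern of the body region in which they arose. Mesenchyme of the thymus derives largely from neural crest of the pharyngeal region, and the lymph nodes sampled here lie at the roots of the limbs.

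Members were ranked by the size of their tissue difference, in either direction, in PDPN+BP3- or PDPN- cells. Promoters are shown for the top members that the promoter table held. These genes were higher in lymph node in both podoplanin classes. Hoxc6, Hoxc8 and Hoxc9 were also among the top members, but the table lacked them and they are named only. The differences of Hoxc6 and Hoxc8 exceeded those of all members shown. The table, from RefSeq on GRCm38.p6, held 25 of the 42 members. Each window is the 250 bases before the annotated start, 5′ to 3′ on the gene's strand, and capitals mark CG dinucleotides. Hoxd9 is the window chr2:74697513-74697762 on the plus strand, Hoxa6 is chr6:52208673-52208922 on the minus strand, and Hoxc4 is chr15:103034145-103034394 on the plus strand.
Hoxd9: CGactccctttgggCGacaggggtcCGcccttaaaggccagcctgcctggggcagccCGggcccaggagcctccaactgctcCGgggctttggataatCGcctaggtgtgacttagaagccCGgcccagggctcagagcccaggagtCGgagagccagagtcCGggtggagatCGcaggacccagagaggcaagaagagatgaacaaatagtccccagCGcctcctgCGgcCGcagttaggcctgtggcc
Hoxa6: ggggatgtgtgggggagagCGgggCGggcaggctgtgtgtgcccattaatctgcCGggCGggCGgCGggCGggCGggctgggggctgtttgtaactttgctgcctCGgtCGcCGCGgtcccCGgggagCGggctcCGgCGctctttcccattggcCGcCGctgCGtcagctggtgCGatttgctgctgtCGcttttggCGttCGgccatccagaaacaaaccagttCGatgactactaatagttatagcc
Hoxc4: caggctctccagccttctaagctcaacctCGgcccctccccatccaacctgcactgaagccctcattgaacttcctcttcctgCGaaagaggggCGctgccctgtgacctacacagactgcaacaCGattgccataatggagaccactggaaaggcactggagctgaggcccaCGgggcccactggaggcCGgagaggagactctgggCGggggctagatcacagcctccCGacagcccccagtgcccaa
The Hoxd9 window had 13 CG dinucleotides and a GC content of 65.2%, the Hoxa6 window 24 and 65.2%, and the Hoxc4 window 8 and 62.0%. Over all 32851 windows of this length the medians were 6 CG dinucleotides and 52.4% GC. The letters TGACAG (a core bound by MEIS proteins, present in 15.9% of all windows), TGATNNAT (a composite of Hox and PBX sites, 7.68%) and TTTATNG (a caudal site, 9.81%) were searched on both strands. None of these letters occurred in the 3 windows.

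Values are the deposited signals on a log2 scale, and differences between groups are given on that scale ± SE from a limma model fitted over all genes. A call is an adjusted p under 0.05 (Benjamini-Hochberg over all 18718 genes). Signals of different genes are not comparable on this array, so every difference between groups is taken within a gene. In sorted bulk samples, fewer cells of a type and less RNA per cell cannot be told apart. As a mark of low signal, the 95th percentile of 989 olfactory receptor genes lay at 2.51 to 2.70 over the arrays. A gene counted as above it in a group when all 3 arrays exceeded it. The mark sets a gene against other genes, so it is a rough guide only. The 99th percentile of the same olfactory receptor genes lay at 2.94 to 3.44 over the arrays. The array medians lay at 3.77 to 3.885 except for thymus PDPN+BP3- replicate 1, whose median was 3.58. The arrays within a group correlated with each other at 0.987 to 0.995. Of the 4 sort antigens, Pdpn and Bst1 followed the labels. Mean Pdpn signal was 8.16 to 9.11 in the 3 podoplanin-positive groups and 3.01 and 3.41 in the PDPN- groups. Mean Bst1 signal was 8.74 in BP3+ cells and 2.18 to 3.30 elsewhere. With Enpep and Pdgfrb counted, 2 of the 4 were called lower in each podoplanin-positive group than in PDPN- cells of its tissue. Called higher were 1 in thymus PDPN+BP3- cells and 2 in each lymph node group. Between PDPN+BP3- cells of the tissues, 1 was called higher and 2 lower in lymph node.

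Most Hox genes of the middle paralog groups had more signal in lymph node than in thymus mesenchyme, in each pair of groups compared. Between PDPN+BP3- cells of the 2 tissues, 19 of the 42 members were higher in lymph node and 4 were lower, where 17.1% of all genes were called (11.8% higher and 5.29% lower). Between PDPN- cells, 16 members were higher and 3 lower, against 9.61% of all genes (4.42% and 5.19%). Between lymph node PDPN+BP3+ cells and thymus PDPN+BP3- cells, 18 were higher and 3 lower, against 28.6% (19.4% and 9.14%). The last comparison uses the thymus arrays of the first. The median difference over the members was 0.26, 0.13 and 0.26 in these comparisons, beside 0.04, -0.01 and 0.04 over all genes. The PDPN+BP3- and PDPN- comparisons share no array, and in them 16 members, all of them Hox genes, were higher in lymph node in both, 2 (Hoxa2 and Meis1) were lower in both and 1 (Pbx3) was called in opposite directions. For 15 members the 9 lymph node arrays all lay above the 6 thymus arrays, a separation seen in 0.882% of all genes. For Meis1 and Meis2 all lymph node arrays lay below all thymus arrays, as for 0.78% of all genes.

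**Figure D1:**
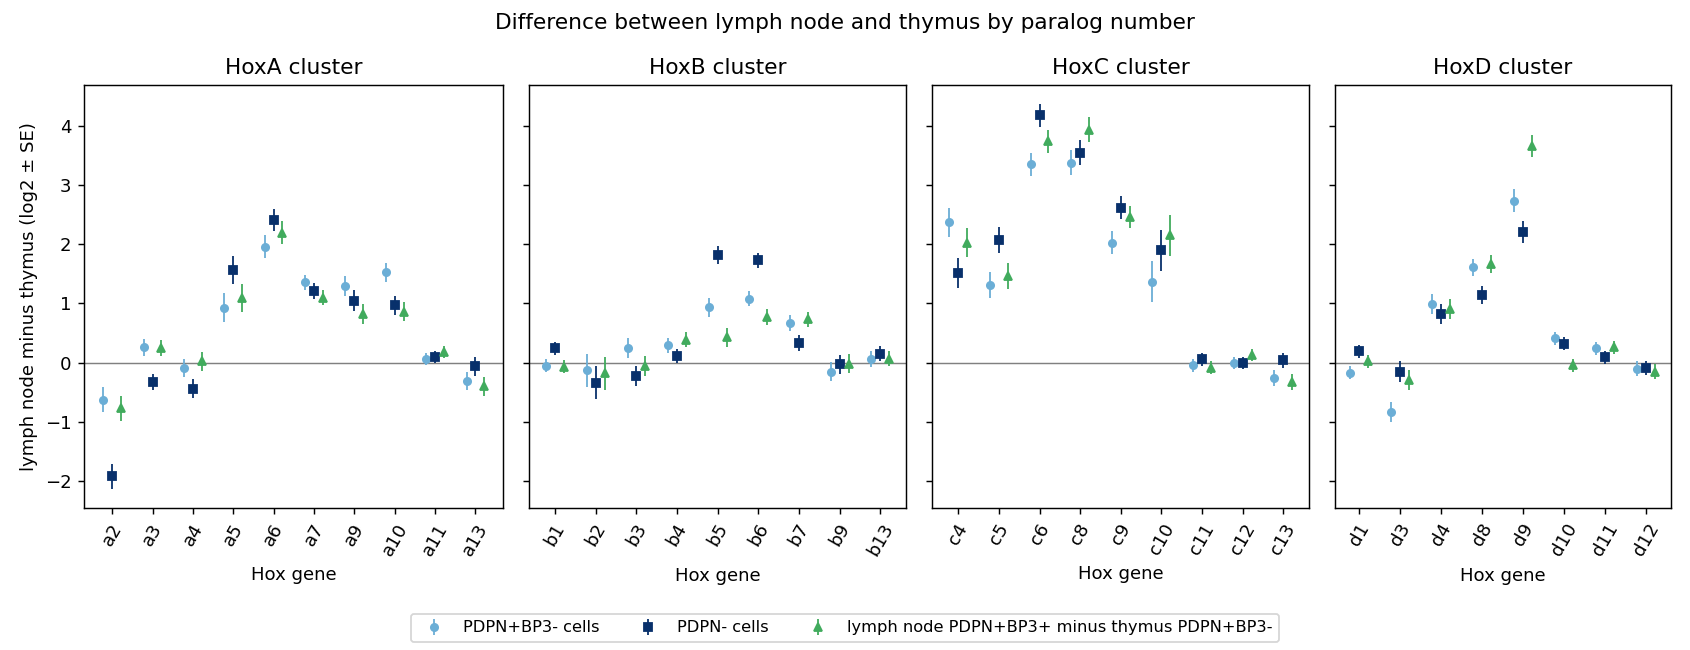
Difference in signal between lymph node and thymus (log2, vertical axis, ± SE) for each of the 36 Hox genes, ordered by paralog number within the 4 clusters, in PDPN+BP3- cells, in PDPN- cells and for lymph node PDPN+BP3+ against thymus PDPN+BP3- cells. Most genes of the middle paralog groups stand above 0, up to 4.18 for Hoxc6 in PDPN- cells, with Hoxa4 at -0.09 in PDPN+BP3- and -0.44 in PDPN- cells, while Hoxa2 stands below 0 in all 3 comparisons.

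By paralog number, the calls lay mainly in groups 4 to 8. Of the 14 members in groups 4 to 8, 12 were higher in PDPN+BP3- cells of lymph node, 11 in PDPN- cells and 12 in BP3+ cells against thymus, and none was lower. Their median differences were 1.19, 1.54 and 1.10. Of the 15 members in groups 9 to 13, 6, 5 and 5 were higher and none was lower, with medians of 0.06, 0.09 and 0.13. Of the 7 members in groups 1 to 3, none was higher, and 2, 1 and 1 were lower, with medians of -0.13, -0.22 and -0.07. By cluster, 6 of 9 HoxC members were higher in each comparison, as were 5 of 10 HoxA members. In HoxB 3, 2 and 3 of 9 members were higher, and in HoxD 4, 3 and 3 of 8.

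All 6 HoxC genes from Hoxc4 to Hoxc10 on the array were higher in lymph node in each of the 3 comparisons, and in both thymus groups only Hoxc4 and Hoxc5 exceeded the low-signal mark on all arrays. Hoxc6, which is used at the level of the forelimb and upper trunk, read 6.09, 6.48 and 5.92 in PDPN+BP3- cells of lymph node, 6.49, 6.36 and 6.80 in PDPN+BP3+ cells and 6.80, 6.21 and 6.19 in PDPN- cells. Thymus values were 2.51, 2.88 and 3.04 in PDPN+BP3- cells and 2.23, 2.30 and 2.12 in PDPN- cells. The tissues did not overlap, and the thymus PDPN- arrays all lay below the low-signal mark. The difference was 3.35 ± 0.19 in PDPN+BP3- cells (limma adjusted p = 3.39e-09), 4.18 ± 0.19 in PDPN- cells (6.22e-10) and 3.74 ± 0.19 for BP3+ cells against thymus (2.62e-10).

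Hoxc8, which patterns thoracic vertebrae and motor neurons of the forelimb, read 6.18, 5.73 and 5.29 in PDPN+BP3- cells of lymph node, 6.39, 6.31 and 6.20 in PDPN+BP3+ cells and 6.11, 5.26 and 5.71 in PDPN- cells. The 6 thymus arrays read 2.44, 2.33 and 2.30 in PDPN+BP3- cells and 1.99, 2.34 and 2.10 in PDPN- cells, all below the low-signal mark. Its differences were 3.38 ± 0.21, 3.55 ± 0.21 and 3.94 ± 0.21 in the same order of comparisons (limma adjusted p = 1.02e-08, 1.10e-08 and 4.42e-10). The tissues did not overlap. Hoxc9, which sets thoracic identity in the spinal cord, read 4.74, 4.98 and 4.23 in PDPN+BP3- cells of lymph node, 5.18, 5.13 and 4.92 in PDPN+BP3+ cells and 5.09, 4.58 and 5.20 in PDPN- cells. Its thymus values were 2.67, 2.56 and 2.63 in PDPN+BP3- cells and 2.14, 2.66 and 2.20 in PDPN- cells. They lay around or below the low-signal mark, and the differences were 2.03 ± 0.19, 2.62 ± 0.19 and 2.46 ± 0.19 (limma adjusted p = 1.34e-06, 1.62e-07 and 5.47e-08).

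Hoxc4 and Hoxc5, at the head end of the cluster and used in the neck region, exceeded the low-signal mark in both tissues. Hoxc4 read 6.03, 6.41 and 6.59 in PDPN+BP3- cells of lymph node, 5.62, 6.05 and 6.32 in PDPN+BP3+ cells and 5.92, 5.61 and 6.34 in PDPN- cells. The thymus arrays gave 3.73, 4.02 and 4.16 in PDPN+BP3- cells and 5.0, 4.19 and 4.13 in PDPN- cells. The highest thymus value, 5.0, still lay below the lowest lymph node value, 5.61. Hoxc4 differed by 2.37 ± 0.25, 1.52 ± 0.25 and 2.03 ± 0.25 (limma adjusted p = 3.38e-06, 0.000558 and 8.69e-06). Hoxc5 read 4.43, 4.51 and 4.27 in PDPN+BP3- cells of lymph node, 4.65, 4.50 and 4.53 in PDPN+BP3+ cells and 5.55, 4.96 and 5.69 in PDPN- cells, which were the highest of its values. The thymus values of Hoxc5 were 2.93, 3.14 and 3.22 in PDPN+BP3- cells and 3.91, 3.24 and 2.85 in PDPN- cells. Its differences were 1.31 ± 0.22, 2.07 ± 0.22 and 1.46 ± 0.22 (limma adjusted p = 0.000465, 8.89e-06 and 8.11e-05).

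Hoxc10, a gene of the lumbar region and hindlimb, varied most among the lymph node arrays of this cluster, between 2.94 and 4.75. It read 3.74, 3.96 and 2.95 in PDPN+BP3- cells, 4.13, 4.73 and 4.13 in PDPN+BP3+ cells and 4.75, 4.40 and 2.94 in PDPN- cells. On the thymus arrays the signal was 2.13, 2.33 and 2.07 in PDPN+BP3- cells and 2.03, 2.23 and 2.12 in PDPN- cells, all below the low-signal mark. The tissues did not overlap, and the differences were 1.37 ± 0.35, 1.90 ± 0.35 and 2.15 ± 0.35 (limma adjusted p = 0.0120, 0.00175 and 0.000185). Without lymph node PDPN+BP3- replicate 2 the difference in PDPN+BP3- cells was 1.17 (limma adjusted p = 0.0658), the highest p over the 22 alternatives, of which the lowest was 0.000411. Hoxc11, Hoxc12 and Hoxc13, at the tail end of the cluster, exceeded the low-signal mark in no group and had no call between the tissues.

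**Figure D2:**
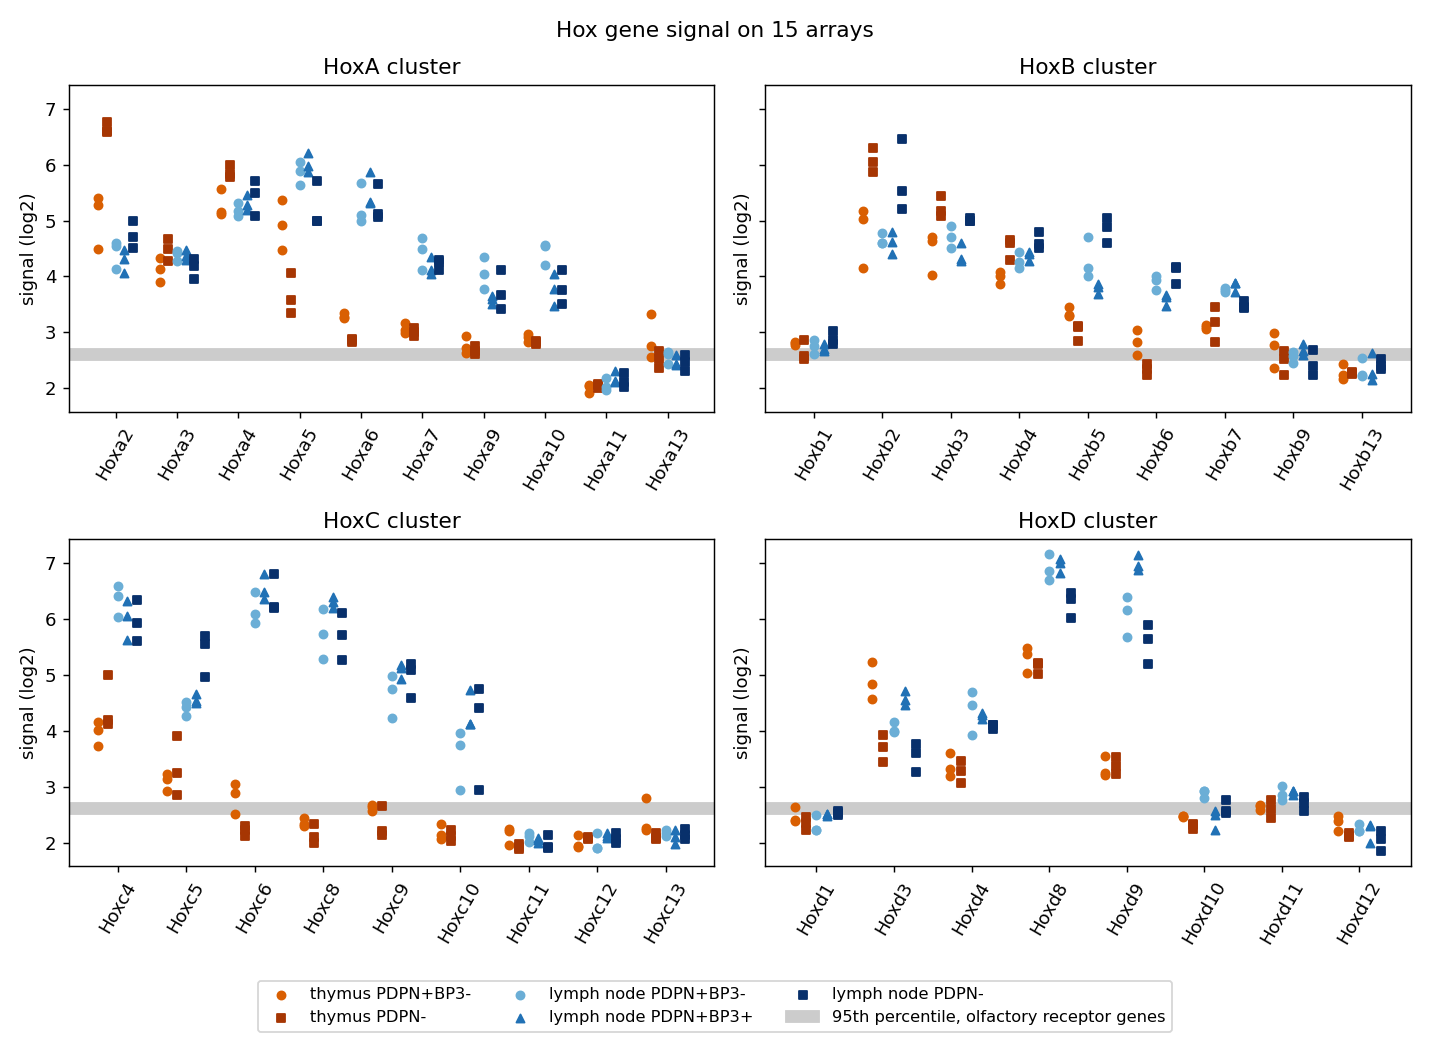
Signal (log2, vertical axis) of the 36 Hox genes on each of the 15 arrays, by cluster; each point is 1 array, and the grey band spans the 95th percentile of olfactory receptor genes over the arrays (2.51 to 2.70). In the HoxC panel the lymph node points of Hoxc6 and Hoxc8 lie between 5.26 and 6.80 and the thymus points at or below 3.04.

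In the HoxA cluster the genes from Hoxa5 to Hoxa10 were higher in lymph node and Hoxa2 was lower. Hoxa6, a gene of the upper trunk, read 4.99, 5.67 and 5.10 in PDPN+BP3- cells of lymph node, 5.33, 5.31 and 5.86 in PDPN+BP3+ cells and 5.11, 5.06 and 5.66 in PDPN- cells. In thymus it read 3.28, 3.26 and 3.35 in PDPN+BP3- cells and 2.83, 2.87 and 2.89 in PDPN- cells. Every thymus array exceeded the low-signal mark and lay below every lymph node array. The thymus PDPN- arrays lay below the 99th percentile of olfactory receptor genes, which was 3.12 to 3.25 in that group. The differences were 1.96 ± 0.19, 2.41 ± 0.19 and 2.20 ± 0.19 (limma adjusted p = 1.68e-06, 3.24e-07 and 1.66e-07).

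Hoxa5, needed for the lung and for the boundary between neck and thorax, was the HoxA gene of this stretch whose tissues overlapped. It read 6.04, 5.89 and 5.63 in PDPN+BP3- cells of lymph node, 6.21, 5.97 and 5.86 in PDPN+BP3+ cells and 5.71, 4.99 and 4.99 in PDPN- cells. Thymus values were 4.48, 4.92 and 5.37 in PDPN+BP3- cells and 3.58, 3.34 and 4.06 in PDPN- cells, so that 1 thymus PDPN+BP3- array lay above 2 lymph node PDPN- arrays. Within a podoplanin class the tissues stayed apart. The differences were 0.93 ± 0.24, 1.57 ± 0.24 and 1.09 ± 0.24 (limma adjusted p = 0.0121, 0.000301 and 0.00230). In PDPN+BP3- cells the difference was 0.71 without thymus replicate 1 and 0.84 without lymph node replicate 1, with limma adjusted p of 0.0667 and 0.0531 in a range of 0.00333 to 0.0667 over the alternatives.

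Hoxa7, Hoxa9 and Hoxa10 had low thymus signals, between 2.61 and 3.16, and no overlap between the tissues. Hoxa7, which patterns vertebrae of the upper trunk, read 4.11, 4.68 and 4.50 in PDPN+BP3- cells of lymph node, 4.05, 4.11 and 4.35 in PDPN+BP3+ cells and 4.26, 4.30 and 4.11 in PDPN- cells. Its thymus values were 2.99, 3.16 and 3.05 in PDPN+BP3- cells and 2.94, 3.08 and 3.01 in PDPN- cells. The differences were 1.36 ± 0.13, 1.21 ± 0.13 and 1.10 ± 0.13 (limma adjusted p = 1.93e-06, 1.43e-05 and 9.16e-06). Hoxa9, which acts in the limb and in blood progenitors, read 3.78, 4.35 and 4.04 in PDPN+BP3- cells of lymph node, 3.65, 3.59 and 3.51 in PDPN+BP3+ cells and 3.41, 4.11 and 3.67 in PDPN- cells. The thymus arrays gave 2.72, 2.64 and 2.93 in PDPN+BP3- cells and 2.76, 2.61 and 2.66 in PDPN- cells, close to the low-signal mark. The differences of Hoxa9 were 1.29 ± 0.17, 1.05 ± 0.17 and 0.82 ± 0.17 (limma adjusted p = 3.26e-05, 0.000417 and 0.00121). Hoxa10, a gene of the lumbar region, hindlimb and uterus, read 4.54, 4.21 and 4.56 in PDPN+BP3- cells of lymph node, 3.77, 4.04 and 3.48 in PDPN+BP3+ cells and 3.51, 4.11 and 3.76 in PDPN- cells. Its thymus values were 2.83, 2.92 and 2.97 in PDPN+BP3- cells and 2.79, 2.82 and 2.85 in PDPN- cells. The PDPN+BP3- cells of lymph node held its 3 highest values, and the differences from thymus were 1.53 ± 0.16, 0.97 ± 0.16 and 0.86 ± 0.16 (limma adjusted p = 3.38e-06, 0.000576 and 0.000580). Hoxa11 lay below the low-signal mark on every array, and Hoxa13, the last gene of the cluster, had no call between the tissues.

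At the head end of HoxA the order of the tissues turned. Hoxa2, which gives the second pharyngeal arch its identity, read 6.61, 6.77 and 6.59 in PDPN- cells of thymus and 4.50, 5.41 and 5.27 in PDPN+BP3- cells of thymus. Lymph node arrays read 4.71, 4.99 and 4.51 in PDPN- cells, 4.13, 4.55 and 4.60 in PDPN+BP3- cells and 4.32, 4.07 and 4.47 in PDPN+BP3+ cells. Thymus PDPN- cells stood above all other groups, and the other groups lay between 4.07 and 5.41. Hoxa2 was lower in lymph node, at -1.92 ± 0.21 in PDPN- cells (limma adjusted p = 1.01e-05), at -0.63 ± 0.21 in PDPN+BP3- cells (0.0450) and at -0.77 ± 0.21 for BP3+ cells against thymus (0.00949). The PDPN+BP3- call was lost in 13 of the 22 alternatives, where the difference ranged from -0.91 to -0.46 and the limma adjusted p from 0.00138 to 0.183. The BP3+ call was lost without thymus PDPN+BP3- replicate 2 (-0.60, limma adjusted p = 0.0510) and without lymph node PDPN+BP3+ replicate 2 (-0.67, 0.0522), in a range of 0.000119 to 0.0522. Hoxa3, which the thymus needs in order to form, had signal in all groups, between 3.90 and 4.67, with a difference of 0.26 ± 0.14 in PDPN+BP3- cells (limma adjusted p = 0.224) and -0.33 ± 0.14 in PDPN- cells (0.161). Hoxa4 had no call between the tissues.

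In the HoxB cluster the tissue differences lay in Hoxb5, Hoxb6 and Hoxb7. Hoxb5, which helps to position the shoulder girdle, read 4.70, 4.15 and 4.01 in PDPN+BP3- cells of lymph node, 3.81, 3.68 and 3.86 in PDPN+BP3+ cells and 4.88, 5.04 and 4.60 in PDPN- cells. On the thymus arrays the signal was 3.29, 3.45 and 3.31 in PDPN+BP3- cells and 3.12, 2.84 and 3.10 in PDPN- cells. All lymph node arrays lay above all thymus arrays, yet the size of the gap differed by subset: 0.94 ± 0.16 in PDPN+BP3- cells (limma adjusted p = 0.000568) and 1.82 ± 0.16 in PDPN- cells (1.12e-06). For BP3+ cells against thymus the difference was 0.43 ± 0.16 and missed the threshold (limma adjusted p = 0.0555, 0.0186 to 0.281 over the alternatives). Hoxb6, which acts in trunk vertebrae and ribs, read 3.75, 4.0 and 3.94 in PDPN+BP3- cells of lymph node, 3.47, 3.66 and 3.64 in PDPN+BP3+ cells and 3.86, 4.15 and 4.17 in PDPN- cells. Its thymus values were 2.60, 2.82 and 3.04 in PDPN+BP3- cells and 2.23, 2.34 and 2.43 in PDPN- cells, the latter below the low-signal mark. The differences were 1.08 ± 0.13, 1.73 ± 0.13 and 0.77 ± 0.13 (limma adjusted p = 1.68e-05, 1.86e-07 and 0.000245).

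Hoxb7, a trunk gene, ranged from 3.43 to 3.88 in lymph node and from 2.82 to 3.46 in thymus, so the tissues overlapped slightly. It was higher in lymph node PDPN+BP3- cells by 0.67 ± 0.13 (limma adjusted p = 0.00173) and in BP3+ cells against thymus by 0.73 ± 0.13 (0.000425), while the difference in PDPN- cells, 0.33 ± 0.13, missed the threshold (0.148). Hoxb1, Hoxb2 and Hoxb3, genes of the hindbrain and pharyngeal arches, had no call between the tissues. Hoxb4 was called only in BP3+ cells against thymus (0.39 ± 0.12, limma adjusted p = 0.0258), and there the difference was 0.15 after cyclic loess normalization (0.409, the highest of a range that starts at 0.0185). Hoxb9 and Hoxb13, at the tail end of the cluster, had no call, and Hoxb13 read at most 2.64.

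In HoxD, Hoxd4, Hoxd8 and Hoxd9 were higher in lymph node in all 3 comparisons. Hoxd9, a gene of the limb and lumbar region, read 5.68, 6.40 and 6.16 in PDPN+BP3- cells of lymph node, 6.88, 6.95 and 7.15 in PDPN+BP3+ cells and 5.64, 5.20 and 5.90 in PDPN- cells. In thymus it read 3.55, 3.25 and 3.21 in PDPN+BP3- cells and 3.37, 3.53 and 3.22 in PDPN- cells. Both thymus groups lay together, above the low-signal mark, and well below all lymph node arrays. The differences of Hoxd9 were 2.74 ± 0.19, 2.21 ± 0.19 and 3.66 ± 0.19 (limma adjusted p = 3.57e-08, 8.21e-07 and 3.53e-10). Hoxd8, used in the trunk, read 6.70, 6.86 and 7.16 in PDPN+BP3- cells of lymph node, 6.83, 7.0 and 7.07 in PDPN+BP3+ cells and 6.01, 6.36 and 6.47 in PDPN- cells. Its thymus values were 5.04, 5.48 and 5.38 in PDPN+BP3- cells and 5.20, 5.21 and 5.01 in PDPN- cells. Every thymus array of Hoxd8 exceeded the low-signal mark, and its differences were 1.61 ± 0.15, 1.14 ± 0.15 and 1.67 ± 0.15 (limma adjusted p = 1.26e-06, 9.14e-05 and 3.32e-07). Hoxd4, a neck gene, lay between 3.93 and 4.69 in lymph node and between 3.07 and 3.61 in thymus, with differences of 0.99 ± 0.17, 0.82 ± 0.17 and 0.90 ± 0.17 (limma adjusted p = 0.000454, 0.00372 and 0.000562).

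Hoxd3, a neck gene that acts with Hoxa3, was lower in lymph node PDPN+BP3- cells, at -0.83 ± 0.17 (limma adjusted p = 0.00244). Its differences in PDPN- cells (-0.15, limma adjusted p = 0.717) and for BP3+ cells against thymus (-0.30, 0.214) missed the threshold. After cyclic loess normalization the latter was -0.51 (limma adjusted p = 0.0362, the lowest of a range that ends at 0.644). Hoxd10, a limb gene, was higher in lymph node PDPN+BP3- cells by 0.41 ± 0.11 (limma adjusted p = 0.0131). After centring of each array on its median this difference was 0.29 (limma adjusted p = 0.117), and without lymph node PDPN+BP3- replicate 2 it was 0.39 (0.0553), in a range of 0.00815 to 0.117. Lymph node PDPN+BP3- cells were the only group in which Hoxd10 exceeded the low-signal mark on all arrays. Hoxd1 and Hoxd12 exceeded the low-signal mark in no group, and neither they nor Hoxd11 had a call between the tissues.

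Counted as genes above the low-signal mark, 21 of the 36 Hox genes were above it in thymus PDPN+BP3- cells and 18 in thymus PDPN- cells, beside 27, 27 and 25 in lymph node PDPN+BP3-, PDPN+BP3+ and PDPN- cells. For the 9 HoxC genes the counts were 2 and 2 in thymus and 6 in each lymph node group. For the 14 genes of paralog groups 4 to 8 they were 11 and 11 in thymus and 14 in each lymph node group. For the 15 genes of groups 9 to 13 they were 4 and 2 in thymus and 7, 7 and 5 in lymph node. Over all members 64.3% and 57.1% were above the mark in the thymus groups and 78.6%, 78.6% and 73.8% in the lymph node groups, where 63.2% to 66.0% of all genes were. In all 35 of the 42 members were above it in at least 1 group.

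Among the cofactor genes, Meis1 was lower in lymph node in all 3 comparisons, Meis2 in 2 of them, and Pbx3 was called in differing directions. All 6 were above the low-signal mark in every group. Meis1, a partner of Hox proteins in limb and blood development, read 7.03, 7.56 and 7.17 in PDPN+BP3- cells of thymus and 7.04, 6.86 and 7.27 in PDPN- cells of thymus. Lymph node arrays read 5.71, 5.40 and 5.32 in PDPN+BP3- cells, 6.28, 6.08 and 5.81 in PDPN+BP3+ cells and 5.39, 5.11 and 5.24 in PDPN- cells. All thymus arrays lay above all lymph node arrays. Meis1 was lower in lymph node, at -1.78 ± 0.16 in PDPN+BP3- cells, at -1.81 ± 0.16 in PDPN- cells and at -1.20 ± 0.16 for BP3+ cells against thymus (limma adjusted p = 9.42e-07, 1.51e-06 and 3.29e-05).

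Meis2, which acts in cranial neural crest, read 6.80, 7.56 and 6.99 in PDPN+BP3- cells of thymus and 6.87, 6.90 and 6.73 in PDPN- cells of thymus. Lymph node arrays read 6.47, 6.42 and 6.41 in PDPN+BP3- cells, 6.41, 6.63 and 6.44 in PDPN+BP3+ cells and 6.60, 6.42 and 6.52 in PDPN- cells. The tissues did not overlap, but the gap was small. The differences were -0.68 ± 0.15 in PDPN+BP3- cells (limma adjusted p = 0.00452) and -0.62 ± 0.15 for BP3+ cells against thymus (0.00505), while -0.32 ± 0.15 in PDPN- cells missed the threshold (0.239). The PDPN+BP3- call was lost when only the compared groups were fitted (limma adjusted p = 0.0527, the highest of a range that starts at 5.80e-05). Meis3, a hindbrain gene, had no call between the tissues. It read 6.22, 6.32 and 6.14 in PDPN+BP3- cells of lymph node, 6.30, 6.23 and 6.53 in PDPN+BP3+ cells, 6.33, 6.10 and 6.27 in PDPN- cells there, 6.13, 6.26 and 6.38 in thymus PDPN+BP3- cells and 6.63, 6.57 and 6.46 in thymus PDPN- cells.

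Pbx3, a broadly used Hox partner, was the member called in opposite directions by tissue comparison. It read 5.91, 5.88 and 5.77 in PDPN+BP3- cells of lymph node, 6.83, 6.92 and 6.87 in PDPN+BP3+ cells and 5.99, 5.96 and 5.77 in PDPN- cells. Thymus values were 5.16, 5.56 and 5.60 in PDPN+BP3- cells and 6.50, 6.24 and 6.23 in PDPN- cells. Lymph node BP3+ cells stood above all other groups, followed by thymus PDPN- cells. The differences were 0.41 ± 0.13 in PDPN+BP3- cells (limma adjusted p = 0.0314), -0.42 ± 0.13 in PDPN- cells (0.0473) and 1.43 ± 0.13 for BP3+ cells against thymus (1.86e-07). The first 2 calls were near the threshold. In PDPN+BP3- cells the difference was 0.17 after cyclic loess normalization (limma adjusted p = 0.284), 0.29 after median centring (0.0951) and 0.27 without thymus PDPN+BP3- replicate 1 (0.150), and 7 of the 22 alternatives lost the call, with a range of 0.0205 to 0.284. In PDPN- cells 16 of the 22 alternatives lost it, with a range of 0.0137 to 0.207 and differences from -0.46 to -0.33.

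Pbx2, another Hox partner, had no call between the tissues and was lower in podoplanin-positive cells in 2 of the 3 comparisons with PDPN- cells. It read 6.33, 6.49 and 5.90 in PDPN+BP3- cells of lymph node, 6.52, 6.44 and 6.34 in PDPN+BP3+ cells and 6.87, 6.86 and 7.0 in PDPN- cells. The thymus arrays gave 5.66, 6.34 and 6.52 in PDPN+BP3- cells and 7.07, 6.95 and 6.83 in PDPN- cells, so both PDPN- groups lay above all podoplanin-positive arrays. For lymph node PDPN+BP3+ against PDPN- cells the difference, -0.48 ± 0.19, missed the threshold (limma adjusted p = 0.0726). Pbx4, best known from testis, lay between 3.03 and 3.73 on all arrays, with no call in any tissue comparison.

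**Figure D3:**
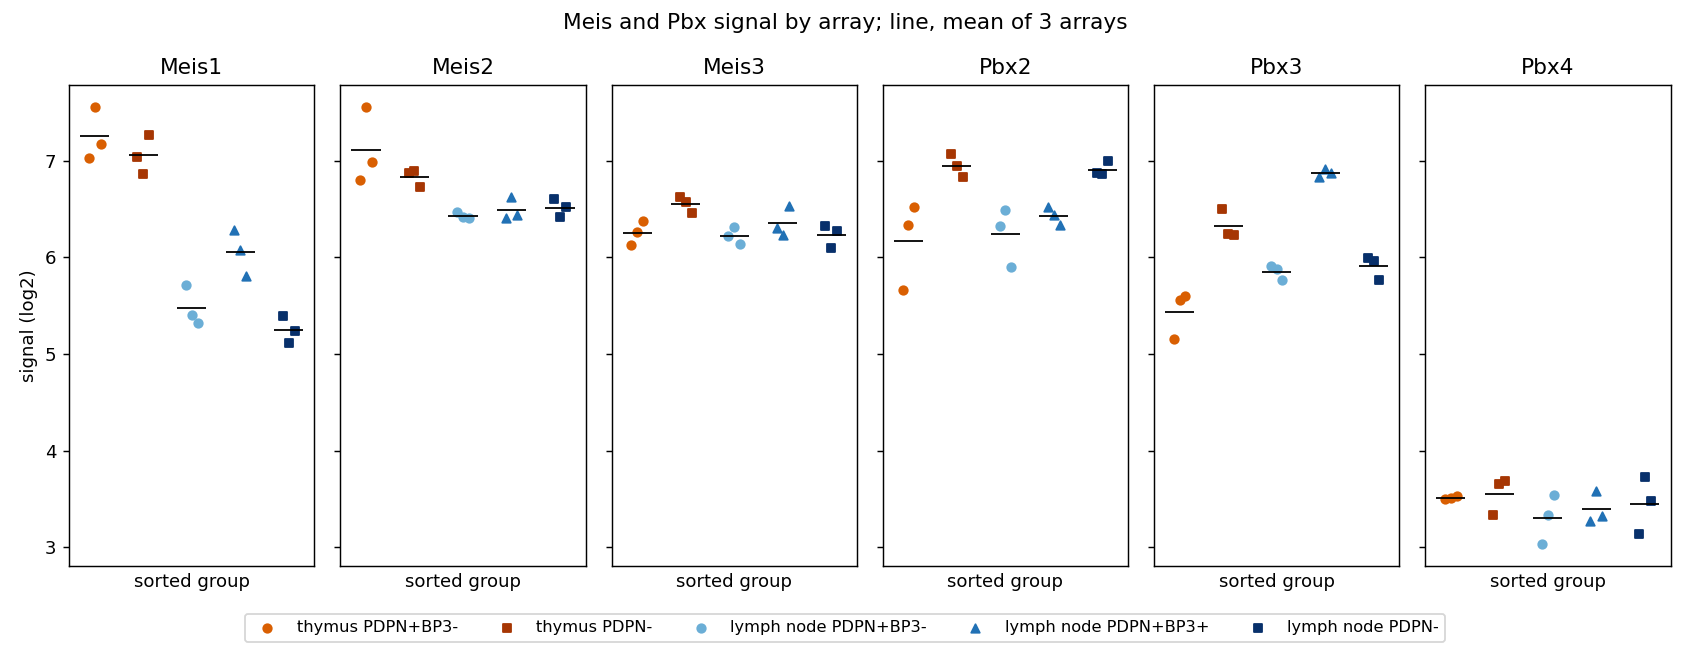
Signal (log2, vertical axis) of the 3 Meis and 3 Pbx genes in the 5 sorted groups; each point is 1 array and each line the mean of 3 arrays. Thymus arrays of Meis1 lie between 6.86 and 7.56 and lymph node arrays between 5.11 and 6.28, and Pbx3 is highest in lymph node PDPN+BP3+ cells at 6.83 to 6.92.

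Within a tissue, the podoplanin-positive and podoplanin-negative cells differed in fewer members than the tissues did. In thymus the PDPN+BP3- cells had 4 members higher and 7 lower than the PDPN- cells, where 28.5% of all genes were called (10.3% higher and 18.2% lower). In lymph node the same contrast had 3 members higher and 4 lower, against 23.1% of all genes (13.4% and 9.79%). For lymph node PDPN+BP3+ against PDPN- cells, which uses the same PDPN- arrays, 7 were higher and 5 lower, against 27.3% (16.1% and 11.2%). The shares of members were thus near or below the shares of all genes. These splits depend on the scaling. After cyclic loess normalization 9 members were higher in thymus PDPN+BP3- cells and 6 lower. For lymph node PDPN+BP3- against PDPN- cells 2 were higher and 6 lower after cyclic loess, and 2 and 5 after centring of each array on its median. For BP3+ against PDPN- cells 6 were higher and 8 lower after either scaling.

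In thymus the anterior genes were among those lower in podoplanin-positive cells. Of the 7 members in paralog groups 1 to 3, 3 were lower and 1 was higher. Hoxa2 was lower in PDPN+BP3- cells, at -1.60 ± 0.21 (limma adjusted p = 1.47e-05), Hoxb2, a hindbrain and second arch gene, at -1.28 ± 0.28 (0.00216) and Hoxb3 at -0.78 ± 0.17 (0.00184). Hoxd3 was the anterior gene higher there, by 1.18 ± 0.17 (limma adjusted p = 4.47e-05). Hoxa5 was also higher in thymus PDPN+BP3- cells, by 1.26 ± 0.24 (limma adjusted p = 0.000655), and Hoxb6 by 0.49 ± 0.13 (0.00919). Hoxc6 was higher by 0.59 ± 0.19 (limma adjusted p = 0.0265), a call lost without any 1 of 4 thymus arrays (PDPN+BP3- replicates 2 and 3, PDPN- replicates 1 and 3), with 0.48 to 0.60 and limma adjusted p of 0.0639 to 0.0987. Over all its alternatives that p ranged from 0.00104 to 0.0987. Neither Hoxb6 nor Hoxc6 exceeded the low-signal mark on all arrays of either thymus group. The other lower members were Pbx3 (-0.88 ± 0.13, limma adjusted p = 4.11e-05), Pbx2 (-0.78 ± 0.19, 0.00462), Hoxb4 (-0.53 ± 0.12, 0.00326) and Hoxa4 (-0.59 ± 0.16, 0.00899). The Hoxa4 difference was -0.33 after cyclic loess normalization (limma adjusted p = 0.142, the highest of a range that starts at 0.00263).

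In lymph node, Hoxb2 was lower in PDPN+BP3- than in PDPN- cells at -1.07 ± 0.28 (limma adjusted p = 0.00932), where lymph node PDPN- replicate 2 had the highest of its values, 6.46. Without that array the difference was -0.70 (limma adjusted p = 0.0511, the highest over its alternatives, from 0.00125). Hoxc5 was lower at -1.0 ± 0.22 (limma adjusted p = 0.00278), Pbx2 at -0.67 ± 0.19 (0.0146) and Hoxb5 at -0.55 ± 0.16 (0.0189). The last 2 calls were each lost without 1 array: Pbx2 without PDPN- replicate 3 (-0.62, limma adjusted p = 0.0518) or PDPN+BP3- replicate 3 (-0.50, 0.0827), and Hoxb5 without PDPN- replicate 2 (-0.45, 0.0916), PDPN+BP3- replicate 2 (-0.48, 0.0835) or PDPN+BP3- replicate 3 (-0.41, 0.101). Over all alternatives these p ranged from 0.000487 to 0.0827 for Pbx2 and from 0.00101 to 0.101 for Hoxb5. Higher in PDPN+BP3- cells were Hoxa10 (0.64 ± 0.16, limma adjusted p = 0.00642), Hoxd8 (0.63 ± 0.15, 0.00598) and Hoxd3 (0.50 ± 0.17, 0.0427). Hoxd3 lost its call in 13 of the 22 alternatives (0.0206 to 0.195).

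Among the 12 members called between BP3+ and PDPN- cells of lymph node were Hoxd9, higher by 1.41 ± 0.19 (limma adjusted p = 2.39e-05), Hoxb5, lower at -1.06 ± 0.16 (9.19e-05), and Pbx3, higher by 0.97 ± 0.13 (1.69e-05). Meis1 was higher by 0.81 ± 0.16 (limma adjusted p = 0.00123) and Hoxd3 by 1.03 ± 0.17 (0.000189). Hoxb2 was lower in BP3+ cells, at -1.12 ± 0.28 (limma adjusted p = 0.00595). Lower as well were Hoxc5 (-0.84 ± 0.22, limma adjusted p = 0.00824), Hoxb3 (-0.61 ± 0.17, 0.0102) and Hoxb6 (-0.47 ± 0.13, 0.0115). Hoxa5 (0.78 ± 0.24, limma adjusted p = 0.0209), Hoxd8 (0.69 ± 0.15, 0.00259) and Hoxc8 (0.61 ± 0.21, 0.0398) were higher. The Hoxc8 call was lost in 9 of the 22 alternatives, and without lymph node PDPN- replicate 2 its difference was 0.39 (limma adjusted p = 0.205). The Hoxa5 call was lost in 4 alternatives and the Hoxb6 call in 2, with limma adjusted p up to 0.0880 and 0.0577. Between the podoplanin-positive cells of lymph node, 4 members were higher and 3 lower in BP3+ than in BP3- cells, where 16.2% of all genes were called (8.49% and 7.74%). After cyclic loess 3 were higher and 4 lower, and after median centring 4 and 4. Pbx3 was higher in BP3+ cells by 1.02 ± 0.13 (limma adjusted p = 1.47e-05) and Hoxd9 by 0.91 ± 0.19 (0.00234), and in both genes the arrays of the 2 groups did not overlap. Meis1 was higher by 0.58 ± 0.16 (limma adjusted p = 0.0217) and Hoxd3 by 0.53 ± 0.17 (0.0423). Lower were Hoxa10 (-0.67 ± 0.16, limma adjusted p = 0.00634), Hoxd10 (-0.45 ± 0.11, 0.00660) and Hoxb5 (-0.50 ± 0.16, 0.0427). Of these, Hoxd10 did not exceed the low-signal mark on all arrays of the BP3+ cells. The Meis1, Hoxd3 and Hoxb5 calls were lost in 4, 11 and 9 of the 22 alternatives, with limma adjusted p up to 0.115, 0.165 and 0.235. Without lymph node PDPN+BP3+ replicate 1 or 2, or PDPN+BP3- replicate 2, 4 members were called in place of 7.

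**Figure D4:**
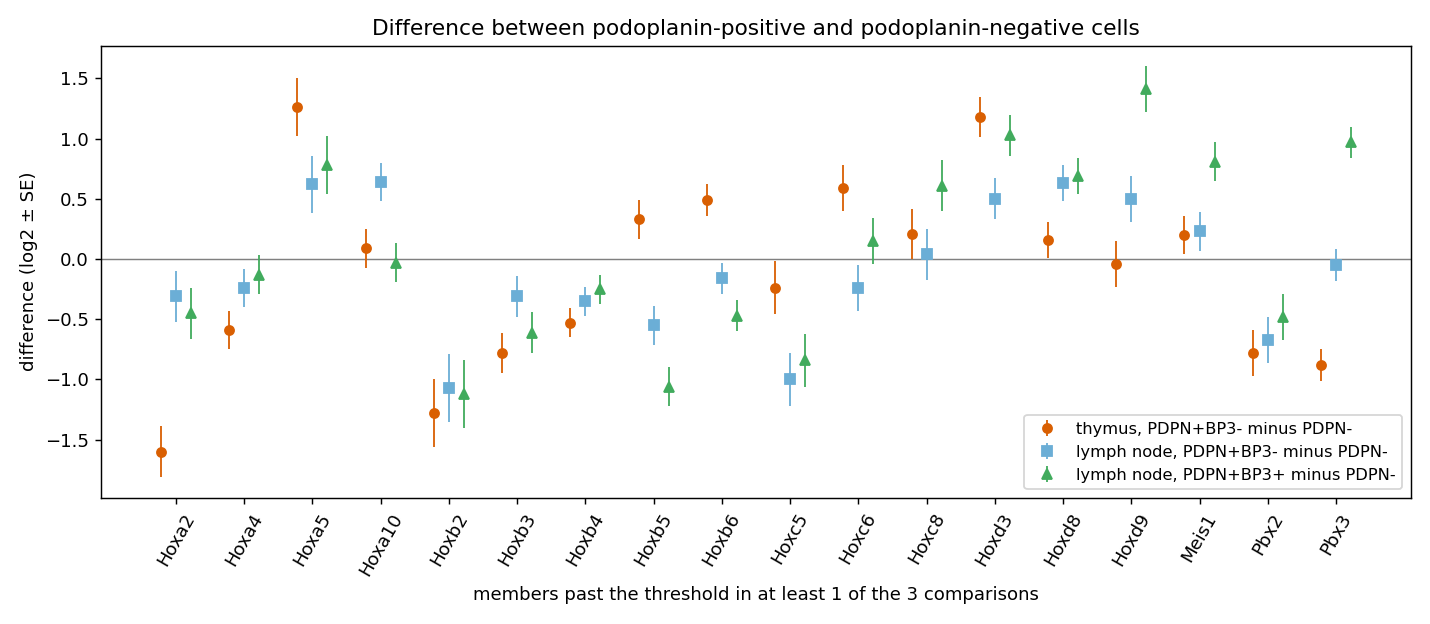
Difference in signal (log2, vertical axis, ± SE) between podoplanin-positive and podoplanin-negative cells for the members past the threshold in at least 1 of 3 comparisons: thymus PDPN+BP3-, lymph node PDPN+BP3- and lymph node PDPN+BP3+, each minus PDPN- cells of the same tissue. Hoxa2 is at -1.60 in thymus and Hoxd9 at 1.41 in lymph node PDPN+BP3+ cells. For several genes, among them Hoxb5, Hoxb6, Hoxc6 and Pbx3, the thymus point and a lymph node point lie on opposite sides of 0.

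Whether the podoplanin difference depended on the tissue was tested as an interaction, with lymph node PDPN+BP3- minus PDPN- set against the same difference in thymus. It was positive for 2 members and negative for 2, where 12.7% of all genes were called (8.67% and 4.05%). Hoxa2 differed between the thymus subsets and less between the lymph node subsets (-0.31, limma adjusted p = 0.348), and the interaction was 1.29 ± 0.29 (0.00741). Pbx3 was lower in thymus podoplanin-positive cells and nearly level in lymph node (-0.05, limma adjusted p = 0.837), with an interaction of 0.83 ± 0.18 (0.00484). Hoxb5 and Hoxb6 had interactions of -0.88 ± 0.23 (limma adjusted p = 0.0170) and -0.65 ± 0.18 (0.0277). The Hoxb5 interaction stood at the threshold without lymph node PDPN+BP3- replicate 2 (-0.81, limma adjusted p = 0.05001, the highest of a range from 0.00148). The Hoxb6 interaction was lost without any 1 of 6 arrays, where it lay between -0.65 and -0.54 with limma adjusted p of 0.0532 to 0.0756, in a range from 0.00461 over all alternatives. In thymus neither subset had Hoxb6 above the low-signal mark on all arrays.

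The other genes of the Hox system were counted from lists in the 3 tissue comparisons, in the order PDPN+BP3-, PDPN- and BP3+ against thymus. Of 11 other TALE genes, 3, 0 and 3 were higher in lymph node and 0, 0 and 1 lower. Pknox2, a relative of Meis, was higher by 1.37 ± 0.16 in PDPN+BP3- cells (limma adjusted p = 1.10e-05), and so was the iroquois gene Irx1 by 1.12 ± 0.12 (3.77e-06). Of 29 genes known to act upstream of Hox genes, among them retinoid, Polycomb and MLL genes, 7, 0 and 9 were higher and 1, 2 and 2 lower. The gene lower in all 3 was Rarb, a retinoic acid receptor that is itself induced by retinoic acid, at -1.70 ± 0.16 (limma adjusted p = 1.25e-06), -0.56 ± 0.16 (0.0377) and -3.17 ± 0.16 (2.98e-10). Its PDPN- call was lost in 10 of the 22 alternatives (0.0140 to 0.197). In BP3+ cells against thymus, Cyp26b1, which degrades retinoic acid, was higher by 3.60 ± 0.13 (limma adjusted p = 4.07e-12) and Gbx2, a homeobox gene, by 3.31 ± 0.12 (4.13e-12).

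Genes that flank the clusters on the chromosome were called in both directions. Of 21 flanking genes, 4, 0 and 6 were higher and 2, 3 and 2 lower in lymph node, with medians of 0.10, 0.01 and 0.20. Jazf1, which lies beyond the HoxA cluster, was lower at -1.68 ± 0.16 (limma adjusted p = 1.64e-06), -0.75 ± 0.16 (0.00612) and -1.88 ± 0.16 (1.74e-07). Of 7 noncoding genes of the clusters with a row of their own, the antisense gene Hoxd3os1 was called, higher by 0.66 ± 0.16 in PDPN+BP3- cells (limma adjusted p = 0.00985) and by 1.05 ± 0.16 in BP3+ cells against thymus (0.000119). Strand was not examined, and the 6 microRNA genes among them had no call. Of 6 ParaHox and posterior regional genes, 0, 1 and 0 were higher and 1, 0 and 1 lower in lymph node. The forelimb gene Tbx5 was higher in PDPN- cells at 1.71 ± 0.28 (limma adjusted p = 0.000558). The hindlimb gene Tbx4 was lower at -0.41 ± 0.11 in PDPN+BP3- cells (limma adjusted p = 0.0194) and at -0.35 ± 0.11 for BP3+ cells against thymus (0.0298). Of 13 genes of hindbrain, pharyngeal arch and neural crest, 5, 3 and 5 were lower in lymph node and 0, 0 and 2 higher. They included Hand2, used in the arches and heart, at -1.77 ± 0.16 in PDPN+BP3- cells (limma adjusted p = 5.83e-07), and in PDPN- cells Dlx5 at -1.36 ± 0.16 (2.92e-05) and Pax1 at -1.44 ± 0.18 (5.63e-05).

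Markers of other cells moved with the tissue, and their part in the Hox differences was not tested. Of 10 T lineage genes, 9, 8 and 9 were lower in lymph node in the 3 comparisons, and their mean signal per array was 3.36 to 5.35 in thymus and 2.60 to 2.83 in lymph node. Of 8 epithelial genes, 6, 7 and 5 were lower, with means of 3.49 to 4.73 in thymus and 2.73 to 2.93 in lymph node. Thymus PDPN+BP3- replicate 1 had the lowest thymus mean of both lists. Replicates 2 and 3 of its group had T lineage means of 4.73 and 4.79 and epithelial means of 4.09 and 4.30. Mesothelial genes were lower in 3, 0 and 4 of 5. Endothelial genes were higher in 4 of 8 in lymph node PDPN+BP3- cells, whose means of 4.08 to 4.51 exceeded the 3.19 to 3.75 of all other arrays. None of 5 B cell genes and none of 6 skeletal muscle genes was called in the tissue comparisons. Yet lymph node PDPN+BP3- replicate 1 had a B cell mean of 3.59, where every other array had at most 2.56. Without that array 20 members were called between the tissues in PDPN+BP3- cells, 7 for lymph node PDPN+BP3- against PDPN- cells and 8 for BP3+ against BP3- cells, beside 23, 7 and 7 with it. By limma the pericyte genes, 10 in all, were higher in 7, 1 and 7 and lower in 2, 4 and 2, the 7 lymphoid stroma genes higher in 6, 2 and 7, and the 7 adventitial genes higher in 0, 3 and 1 and lower in 3, 0 and 6. Myeloid genes were higher in 2, 1 and 1 of 6, and adipocyte genes in 1, 0 and 0 of 5.

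Markers of other cells also moved with the subsets, and their part in the subset differences was not tested. All 10 pericyte genes were lower in podoplanin-positive than in PDPN- cells in each of the 3 comparisons. In thymus PDPN+BP3- against PDPN- cells, 4 of 10 T lineage genes and 4 of 8 epithelial genes were lower, 3 of 5 mesothelial genes were higher, and of 8 endothelial genes 2 were higher and 3 lower. In lymph node PDPN+BP3- against PDPN- cells 4 of 8 endothelial genes were higher. From BP3- to BP3+ cells, 6 of 8 endothelial and 6 of 7 adventitial genes were lower. In the interaction 8 of 10 pericyte and 4 of 8 endothelial genes were positive, and 5 of 7 adventitial and 3 of 5 mesothelial genes negative.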

How the data were processed

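Sorted cells were measured on Affymetrix mouse gene arrays after column purification and amplification of RNA, per the labels' protocols. The authors deposited log2 signals, made with RMA in the Affymetrix Expression Console per the submitters' processing notes; the sources used here give neither versions nor the genome build of the array annotation. Base 2 was inferred from the range of 1.07 to 12.07. RMA places all arrays on 1 distribution of probe signals and compresses low values, so log2 differences of dim genes are not RNA ratios. Of 24758 transcript clusters, 20844 had 1 symbol; the one with the highest mean was kept per gene, and 18718 genes were tested with no filter.

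The model was limma 3.58.1 in R 4.3.3, with 1 mean per group over 15 arrays and empirical Bayes moderation (10 residual and 5.5 prior degrees of freedom), and it was tested on simulated data. The number of arrays limits the precision. P-values measure the spread between individual experiments on pooled mice. The members, gene lists and tests were chosen with earlier results of these data known. All arrays are given for members called in a tissue comparison or the interaction with a difference of at least 1, and for Meis and Pbx; in each list up to 3 genes with the smallest adjusted p may be named. The 22 alternatives were cyclic loess, median centring, a trended and robust prior, only the compared groups, a low-value filter, the mean of all transcript clusters of a gene, a replicate block, and each array left out. Replicate numbers were not taken to pair arrays.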

Additional observations from a re-analysis of the deposited data

Results flagged for a closer look

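In 4 of the 42 members the podoplanin contrast (PDPN+BP3- minus PDPN-) differed between lymph node and thymus past the threshold. Over all genes 12.7% did, so the share of members was below that of all genes. For Hoxa2 the lymph node difference minus the thymus difference was 1.29 on the log2 scale (limma adjusted p = 0.00741). For Pbx3 it was 0.83 (limma adjusted p = 0.00484). For Hoxb5 it was -0.88 (limma adjusted p = 0.0170) and for Hoxb6 -0.65 (0.0277). Hoxb6 did not exceed the low-signal mark on all arrays of either thymus group. With 3 arrays a group, no group was large enough to be searched for single outlying arrays.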

How the results depend on the processing

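Of 104 pairs of member and comparison past the threshold, 81 stayed past it in all 22 alternatives, 23 were lost in at least 1 and none changed sign. After cyclic loess normalization 8 members had an interaction in place of 4, of which 2 were positive and 6 negative in place of 2 and 2. Over all genes 862 were then positive and 1215 negative, in place of 1623 and 758. With the array median as the mark of low signal, 15 members exceeded it in thymus PDPN+BP3- cells and 13 in thymus PDPN- cells, in place of 27 and 24. With 1 array left out at a time, members called ranged from 4 to 9 for lymph node BP3+ against BP3- cells (7 with all arrays). The others were within 1.5 times: 19 to 23 and 18 to 19 between the tissues in PDPN+BP3- and PDPN- cells, 20 to 22 for BP3+ cells against thymus, 10 to 13 between thymus subsets, 5 to 9 and 9 to 14 for lymph node PDPN+BP3- and BP3+ against PDPN- cells, and 3 to 5 for the interaction. The split of calls over all genes moved with scaling. In PDPN+BP3- cells 69.1% of calls were higher in lymph node, beside 45.7% after cyclic loess, 50.2% after median centring and 54.6% without thymus PDPN+BP3- replicate 1, where 18, 17 and 17 members were higher and 4 lower each time. For BP3+ cells against thymus it was 68.0%, beside 47.4% and 48.7% after these scalings and 57.0% without that array. Median centring moved the median of all genes from 0.04 to -0.085 in PDPN+BP3- cells, from 0.04 to -0.103 for BP3+ cells against thymus and from 0.057 to -0.072 for the interaction. For the thymus subsets 36.0% were higher, beside 55.0% after cyclic loess and 47.5% without that array. In PDPN- cells 46.0% were higher in lymph node, beside 54.1% after cyclic loess. For lymph node PDPN+BP3- against PDPN- cells it was 57.7%, beside 48.0% after median centring. For BP3+ against lymph node PDPN- cells it was 58.9%, beside 47.8% after median centring. For the interaction 68.2% were positive, beside 41.5%, 53.2% and 55.5%. Low signal limits Hoxa11, Hoxb13, Hoxc11 to Hoxc13, Hoxd1 and Hoxd12, which no group raised above the mark. It also limits Hoxd10, which was above the mark in lymph node PDPN+BP3- cells alone.

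The pairing of arrays by replicate number was checked: of 30 pairs with the same number, deviations from the group means correlated at -0.174 to 0.288, 6 of them over 0.1, and other pairs at -0.305 to 0.223. Arrays closest to their own number were 8 of 15. Both this check and the replicate block took arrays of both tissues together, so pairing within a tissue alone was not tested. With a replicate block, 23, 18 and 21 members were called in the 3 tissue comparisons, 11, 6, 12 and 7 in the subset comparisons of thymus, lymph node BP3- against PDPN-, BP3+ against PDPN- and BP3+ against BP3-, and 4 in the interaction.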

Other observations

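Some Hox signal lies in transcript clusters annotated with more than 1 gene, which the rule for members leaves out. The cluster shared by Hoxb8 and Hoxb7 read 2.15 to 2.33 in thymus, and in lymph node 2.81 to 3.47 for PDPN-, 2.36 to 2.67 for PDPN+BP3- and 2.31 to 2.35 for PDPN+BP3+ cells. The cluster shared by Hoxd3 and its antisense gene Hoxd3os1 read 3.10 to 4.05 in lymph node and 2.11 to 2.59 in thymus, the opposite order to Hoxd3's own row in PDPN+BP3- cells. The cluster shared by Hoxa3 and its antisense gene Hoxaas2 read 3.30 to 4.01 in thymus and 2.95 to 3.60 in lymph node. These values were not tested, and which gene of each pair gave the signal cannot be told from them.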
